A study of Arabidopsis thaliana with 21 samples.

Results

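A set of 55 probe sets of the ATH1 array gave more signal after compound B than after compound A, with and without auxin, in Arabidopsis seedlings treated for 1 h. The members were chosen from group means of the deposited log2 signals. A probe set passed where B exceeded DMSO, B with IAA exceeded IAA, and B exceeded A by at least 0.6 log2 units each, and where B with IAA exceeded A with IAA by at least 0.4. Of 22746 probe sets, 62 passed. Left out by name were 4 plastid genes (rpl36, rpoA, ndhG and ycf4), the glutathione transferases GSTU25 and GSTU22, and AT2G41730, which leaves 55 probe sets or 0.242% of all. The same 4 thresholds with A and B exchanged were passed by 220 probe sets (0.967%). All differences in these 4 comparisons are therefore a description of how the set was picked, and they are given without a test.

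The seedlings were Col-0, grown in the light in liquid culture and taken at 7 days, per the labels and array headers. The 6 groups were 5 µM IAA with 10 µM B (IAA/B, 3 arrays), 10 µM B (3 arrays), 5 µM IAA with 10 µM A (IAA/A, 3 arrays), 10 µM A (4 arrays), 5 µM IAA (4 arrays) and the solvent DMSO (4 arrays). A and B are known here by these letters only. RNA came from seedlings in bulk, so fewer cells of a type and less RNA per cell cannot be told apart in any result.

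As background, indole-3-acetic acid (IAA) is the main natural auxin. It brings a receptor of the TIR1/AFB family together with Aux/IAA repressors, which are then degraded, and genes such as GH3 and LBD members are transcribed within the hour. Small molecules that enter a plant cell can also raise genes of detoxification, of stress signalling and, through blocked respiration, of mitochondrial stress. Expansins and the related expansin-like proteins are secreted into the cell wall, where expansins loosen the wall during growth.

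The header of the array titled IAA 2 names compound B, but its values went with its title. GH3.3, an auxin-induced gene whose enzyme conjugates IAA to amino acids, had 13.3 log2 units on that array, against 12.8 to 13.2 on the other IAA arrays, 8.45 to 8.65 on B arrays and 7.84 to 8.35 on DMSO arrays. GRX480, a glutaredoxin, had 5.18 there, against 10.3 to 10.7 on B arrays. The array was kept as IAA. Without it, 56 probe sets met the rule, 55 of them the members described here, and 30, 20 and 3 members passed the tests of A against DMSO, IAA/A against IAA and IAA against DMSO. Arrays within a group correlated at 0.978 or more. Array medians lay between 7.17 and 7.25 log2 units. DMSO 2, DMSO 4, A 2 and IAA/B 1 had stood farthest from their groups in an earlier look at these data. Without these 4 arrays, 60 probe sets met the rule, 50 of them among the 55, and 36, 29 and 5 of the 55 passed in A against DMSO, IAA/A against IAA and IAA against DMSO. The labels do not tell whether replicate arrays stand for separate cultures, so p-values may reflect technical spread, and precision is limited by the number of arrays.

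Of the 55 members, 24 were paired with 1 gene, 2 with several and 29 with none. The 24 genes all code for proteins and lie on chromosome 1 (5 genes), chromosome 2 (6), chromosome 3 (5), chromosome 4 (4) and chromosome 5 (4). Only EXLA1 and EXLA3 carry a symbol in the RefSeq gene table (assembly TAIR10.1). The other 22 genes are listed there by locus tag alone, and no role is given for them here, except that AT2G21640 is on the list of mitochondrial stress genes used here. Members without a gene are called by their probe set.

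Across the set, the signal after B exceeded that after DMSO by 0.63 to 5.05 log2 units, with a median of 1.70. The difference was at least 4-fold for 22 members and at least 2-fold for 47. In the presence of IAA the same compound gave 0.66 to 4.70 log2 units over IAA alone, with a median of 1.41, and at least 2-fold for 41 members. B exceeded A by 0.61 to 2.92 log2 units (median 0.96), and IAA/B exceeded IAA/A by 0.42 to 2.64 (median 0.79). Every B array lay above every DMSO array for 54 members, against 8.1% of all probe sets, and every IAA/B array above every IAA array for 55, against 11.6%. Every B array lay above every A array for 50 members, against 8% of all probe sets, and every IAA/B array above every IAA/A array for 49, against 13.9%. The rule picked these separations, and nothing is read from them.

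The members' median ordered the arrays by compound. Their median signal relative to the DMSO mean was 1.57, 1.58 and 1.57 log2 units on the IAA/B arrays and 2.09, 1.65 and 1.45 on the B arrays. It was 0.52, 0.64 and 0.78 on the IAA/A arrays and 0.98, 0.59, 0.79 and 0.61 on the A arrays. The IAA arrays stood at -0.01, 0.09, -0.02 and 0.01 and the DMSO arrays at 0.13, -0.02, -0.06 and 0.03. The 6 arrays with B thus formed the upper band, the 7 arrays with A a band between 0.52 and 0.98, and the 8 arrays with neither compound lay around 0. The rule asks for B above A and above the controls in group means, so the upper band is by the choice of the set. It also caps the band of A. B 1 was the highest array, and without it 49 probe sets met the rule, 43 of them among the 55.

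**Figure D1:**
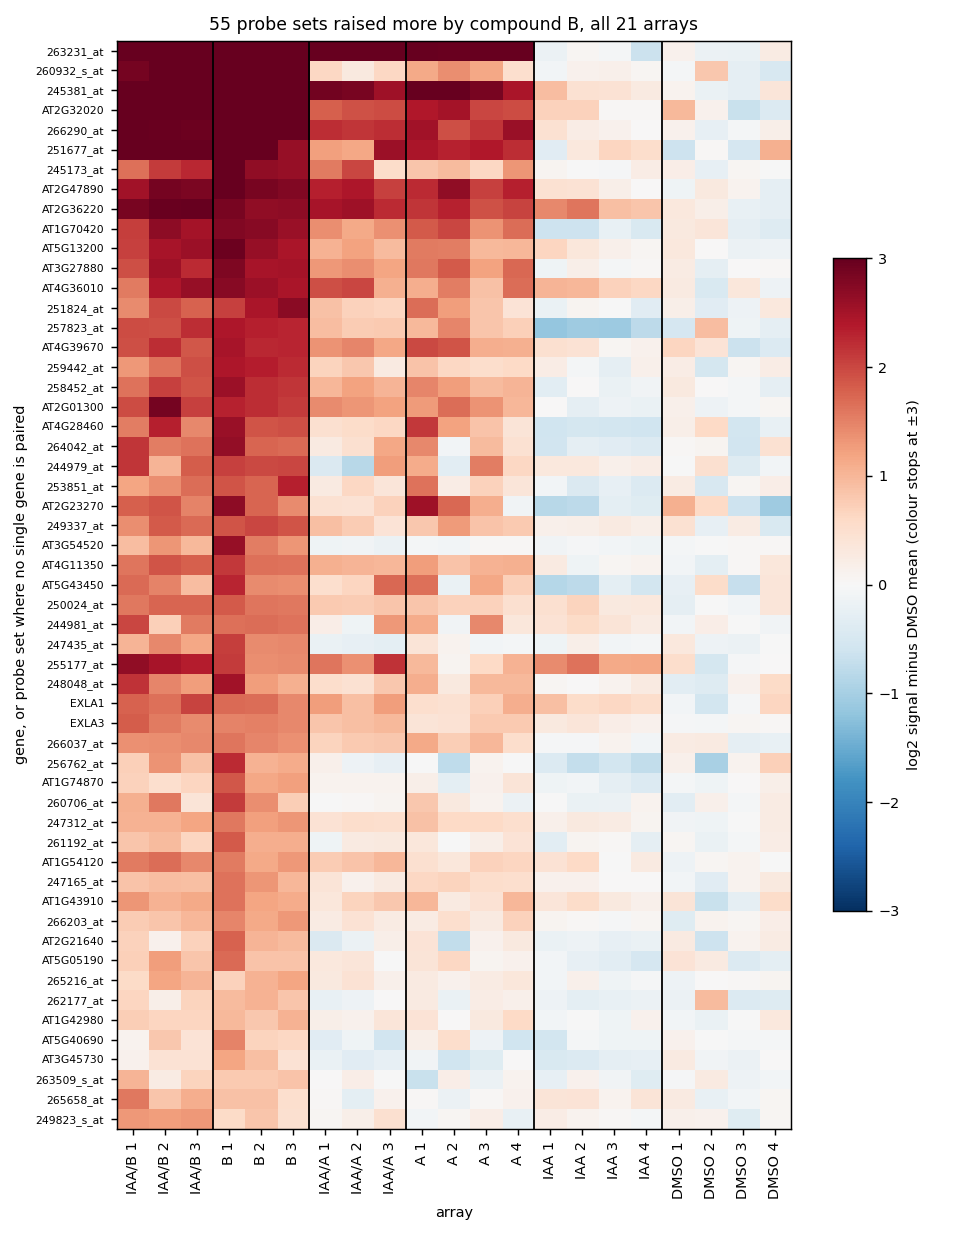
Heat map of the 55 members (rows, in order of the difference between B and DMSO) on the 21 arrays (columns, by group), where colour gives the log2 signal minus the member's DMSO mean and stops at 3 in either direction. The median of a column lies between 1.45 and 2.09 on the IAA/B and B arrays, between 0.52 and 0.98 on the IAA/A and A arrays, and between -0.06 and 0.13 on the IAA and DMSO arrays.

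The members closest to the thresholds show how fine the boundary is. AT1G42980 passed with B above A by 0.61, AT2G47890 with B above A by 0.61 and AT5G43450 with IAA/B above IAA/A by 0.42 log2 units. AT1G42980 gave 5.42, 5.26 and 5.48 log2 units on the B arrays, 4.87, 4.45, 4.74 and 5.06 on the A arrays and 4.36, 4.24, 4.43 and 4.76 on the DMSO arrays. With IAA it gave 5.19, 5.11 and 5.10 in IAA/B, 4.63, 4.58 and 4.82 in IAA/A and 4.36, 4.44, 4.32 and 4.57 in IAA. Its B arrays lay above all A and DMSO arrays, and its A and DMSO arrays overlapped.

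AT5G43450 was the member most easily lost from the set. It gave 9.32, 8.48 and 8.45 in B, 8.69, 6.85, 8.22 and 7.76 in A and 6.81, 7.59, 6.37 and 7.42 in DMSO. With IAA the values were 8.74, 8.53 and 7.97 in IAA/B, 7.55, 7.68 and 8.76 in IAA/A and 6.20, 6.26, 6.75 and 6.50 in IAA. The array A 1, at 8.69, lay above B 2 and B 3, and IAA/A 3, at 8.76, lay above every IAA/B array. When each of the 21 arrays was left out in turn, AT5G43450 stayed in the set in 15 settings, AT1G42980 and AT2G47890 in 17, and 37 of the 55 members in all 21.

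Just outside lay 249438_at, 262525_at and AT2G47560. For 249438_at, B gave 4.87, 4.94 and 4.70, A 4.56, 4.42, 4.05 and 3.91 and DMSO 3.79, 3.79, 3.99 and 3.61, so B exceeded A by 0.598 and its B arrays lay above all its A arrays. Its values with IAA were 4.31, 4.32 and 4.70 in IAA/B, 3.95, 3.89 and 4.07 in IAA/A and 4.02, 3.65, 3.69 and 3.77 in IAA. The next, 262525_at, gave 9.08, 8.95 and 8.55 in B, 8.20, 7.99, 7.94 and 7.91 in A and 7.63, 7.26, 7.53 and 7.39 in DMSO. It missed through the arrays with IAA, since its signal was 8.63, 9.002 and 8.92 in IAA/B, 8.34, 7.88 and 8.14 in IAA/A and 8.44, 8.63, 7.98 and 7.98 in IAA, where IAA/B exceeded IAA by 0.594. Its highest IAA array almost reached its lowest IAA/B array. AT2G47560 gave 7.21, 7.17 and 7.12 in B, 6.62, 6.35, 6.64 and 6.50 in A and 6.54, 6.36, 6.71 and 6.74 in DMSO. B exceeded DMSO by 0.579, and the A and DMSO arrays overlapped. Its IAA/B arrays stood at 7.77, 7.46 and 7.37, its IAA/A arrays at 6.86, 6.96 and 6.92 and its IAA arrays at 6.90, 6.88, 6.73 and 6.79. Those probe sets thus resembled the members in direction and each missed 1 of the 4 thresholds by a small margin.

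Whether A also raised the members is a question that the rule leaves partly free, although it shares the A and DMSO arrays with it. A raised 30 of the 55 members over DMSO and lowered none, by limma with adjustment over all 22746 probe sets. Among all probe sets 8.39% passed, 5.45% as higher. The median difference was 0.69 log2 units for the members and -0.02 for all probe sets. Every A array lay above every DMSO array for 27 members, against 5.43% of all probe sets. Members that passed rose by 0.42 to 3.51 log2 units. The 25 that did not pass ranged from -0.26 to 1.31.

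With IAA present, A raised 23 of the 55 members over IAA alone and lowered none, against 9.08% of all probe sets passing and 4.78% passing as higher. Since the IAA/A and IAA arrays also enter the rule, this comparison is not free of it. The median difference was 0.51 log2 units for the members and -0.03 for all probe sets. Every IAA/A array lay above every IAA array for 38 members, against 11.7% of all probe sets. A passed in both settings for 21 members, without IAA only for 9, with IAA only for 2 and in neither for 23. The split rests on the count over IAA, which was 40 with only the compared groups fitted and 40 with array weights, where 20.5% and 29.3% of all probe sets passed. The 2 were AT5G43450 and 264042_at. The call for AT5G43450 was lost without IAA/A 3, and that for 264042_at (limma, adjusted p = 0.0434) without any 1 of the 7 arrays compared or without IAA/B 3.

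In log2 units, the difference made by A was a median of 42.0% of that made by B, with a range from -30.7% to 80.2% over the members. With IAA the median was 40.2%, with a range from -44.3% to 80.8%. The rule caps these shares, because it asks B to exceed A, and both shares use the same DMSO or IAA arrays in both differences. The difference between A and DMSO was at least 0.6 for 35 members and under 0.2 for 11, and that between IAA/A and IAA was under 0.2 for 12. These differences are capped by the rule too, and the shares of all probe sets at these limits are not given.

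**Figure D2:**
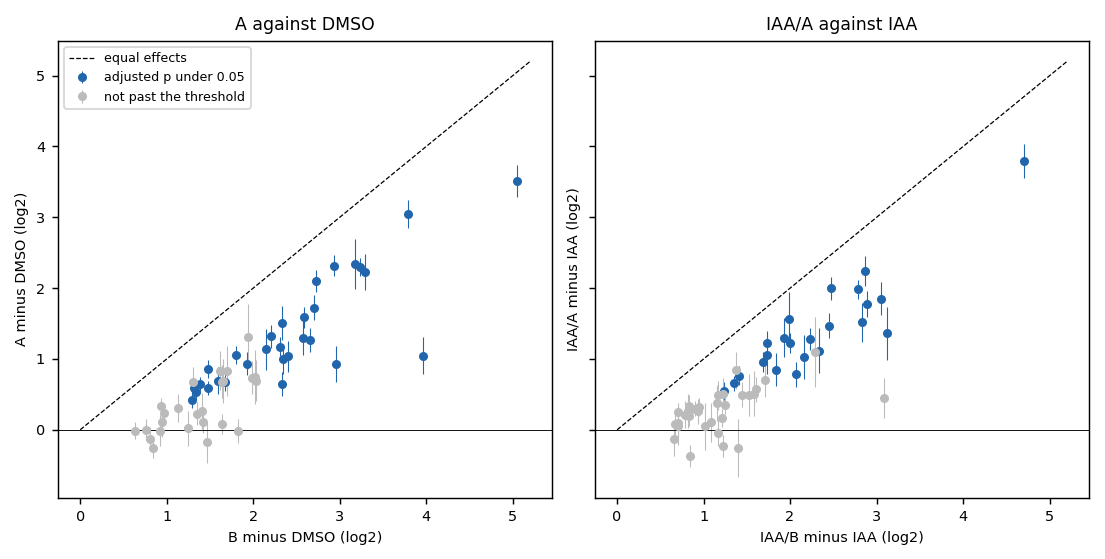
Difference made by A (vertical, with its SE) against the difference made by B (horizontal) for the 55 members, in log2 units, over DMSO in the left panel and over IAA in the right. Blue points passed the test of A, grey points did not, and members lie below the dashed line of equal differences by the choice of the set. They run from near 0 on the vertical axis up to 263231_at, at 3.51 over DMSO and 3.80 over IAA.

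The expansin-like genes EXLA1 and EXLA3 code for members of the expansin-like A family, which are secreted proteins related to the wall-loosening expansins. They are neighbours on chromosome 3, with 0 protein-coding genes between them. EXLA1 gave 10.61, 10.59 and 10.35 log2 units in B, 9.42, 9.37, 9.64 and 10.02 in A and 8.84, 8.37, 8.89 and 9.57 in DMSO. Together with IAA it gave 10.68, 10.58 and 10.94 in IAA/B, 10.18, 9.82 and 10.17 in IAA/A and 9.82, 9.47, 9.54 and 9.44 in IAA. Each array with B lay above each array without B in the matching setting, while A and DMSO overlapped through DMSO 4. B exceeded DMSO by 1.60 ± 0.20 log2 units (SE) and exceeded A by 0.91 ± 0.20. A exceeded DMSO by 0.69 ± 0.19 (limma, adjusted p = 0.0246), a call lost without DMSO 1, DMSO 2, DMSO 3, A 3 or A 4. IAA/A exceeded IAA by 0.49 ± 0.20, with a 95% interval of 0.06 to 0.91 (adjusted p = 0.152).

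EXLA3 was more even between arrays than EXLA1, whose DMSO mean lay at percentile 79.4 of all probe sets. The DMSO mean of EXLA3, 4.90, lay at percentile 19.8, and whether background narrowed its spread was not tested. Its signal was 6.38, 6.40 and 6.35 in B, 5.27, 5.32, 5.69 and 5.69 in A and 4.87, 4.85, 4.95 and 4.93 in DMSO. The arrays with IAA gave 6.70, 6.46 and 6.32 in IAA/B, 5.74, 5.79 and 5.87 in IAA/A and 5.19, 5.25, 5.09 and 5.03 in IAA. The groups formed 3 steps without overlap in either setting, with B on top and A between B and the control. B exceeded DMSO by 1.48 ± 0.11 and IAA/B exceeded IAA by 1.35 ± 0.11. Compound A increased EXLA3 by 0.60 ± 0.10 over DMSO (limma, adjusted p = 0.000282) and by 0.66 ± 0.11 over IAA (adjusted p = 0.000268). The differences made by IAA over DMSO did not pass for EXLA1, at 0.65 ± 0.19 (adjusted p = 0.0993), or for EXLA3, at 0.24 ± 0.10 (adjusted p = 0.31).

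The other measured genes of the expansin-like family were looked up after these values were seen. EXLA2, which is no member, gave 8.19, 7.87 and 8.18 in B, 7.92, 7.89, 8.38 and 8.30 in A and 7.64, 7.66, 7.61 and 7.94 in DMSO. In the arrays with IAA it gave 9.16, 8.92 and 8.80 in IAA/B, 8.69, 8.81 and 9.23 in IAA/A and 8.64, 8.88, 8.36 and 8.34 in IAA. All IAA arrays lay above all DMSO arrays, and IAA raised it by 0.84 ± 0.15 (limma, adjusted p = 0.00229). B stood above DMSO by 0.37 ± 0.16 and differed from A by -0.05 ± 0.16, with a 95% interval of -0.38 to 0.29. EXLB1 differed between B and DMSO by -0.09 ± 0.13 and between A and DMSO by -0.16 ± 0.12, with 95% intervals of -0.35 to 0.18 and -0.41 to 0.08.

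**Figure D3:**
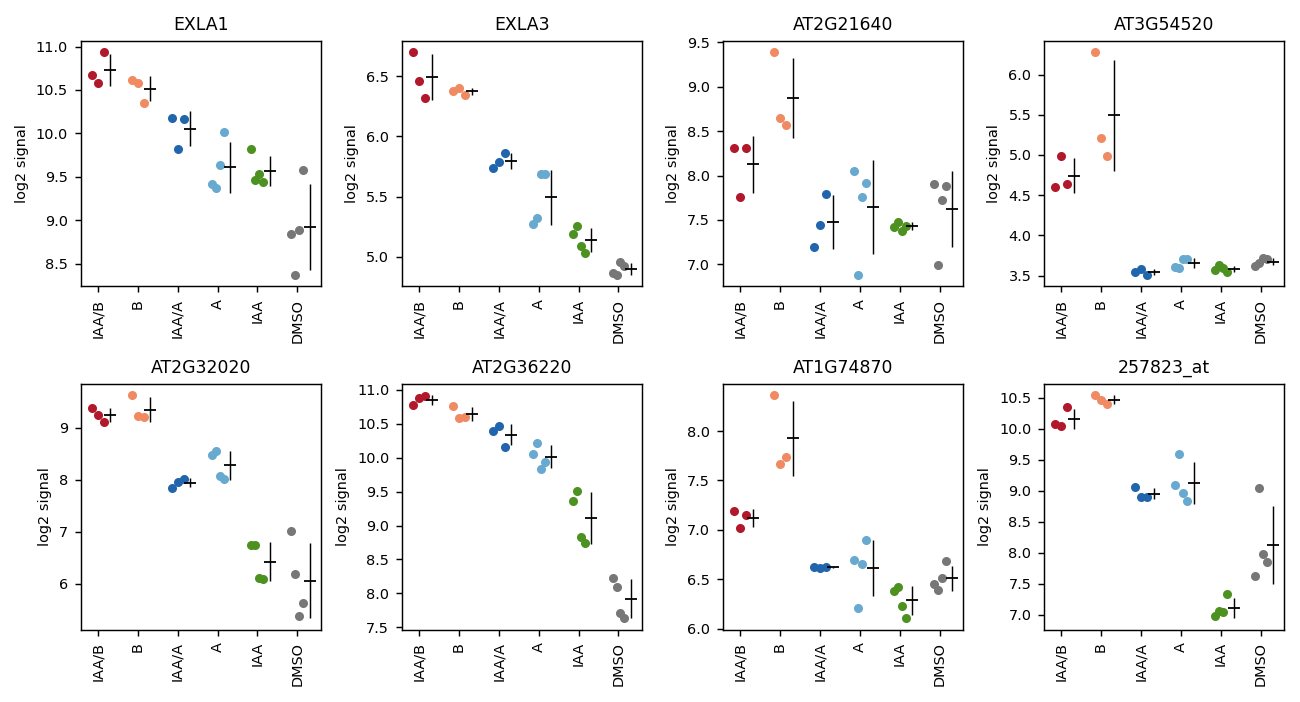
Log2 signal of 8 members by group, with 1 coloured point per array and a black mark for the group mean with its SD. EXLA3 forms 3 steps without overlap, while the A arrays of AT2G21640 and AT3G54520 overlap their DMSO arrays.

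Among members paired with 1 gene, AT2G32020 had the largest difference between B and DMSO. It had 9.63, 9.23 and 9.20 log2 units in B, 8.47, 8.56, 8.07 and 8.02 in A and 7.02, 6.18, 5.39 and 5.64 in DMSO. Its values in the presence of IAA were 9.39, 9.25 and 9.11 in IAA/B, 7.84, 7.96 and 8.02 in IAA/A and 6.74, 6.75, 6.10 and 6.09 in IAA. No array crossed between the 3 groups of either setting. B exceeded DMSO by 3.295 ± 0.28 and exceeded A by 1.07 ± 0.28. A alone lifted it by 2.22 ± 0.25 over DMSO (limma, adjusted p = 3.15e-06) and by 1.52 ± 0.28 over IAA (adjusted p = 0.00099).

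AT2G47890 responded to both compounds, with B only slightly ahead. The B arrays gave 10.88, 10.58 and 10.51, the A arrays 9.96, 10.38, 9.78 and 10.05 and the DMSO arrays 7.59, 8.03, 7.84 and 7.45. The IAA/B arrays gave 10.25, 10.59 and 10.56, the IAA/A arrays 10.05, 10.15 and 9.78 and the IAA arrays 8.19, 8.16, 7.91 and 7.73. Every array with either compound lay well above every control array of the setting. Its rise under A was 2.32 ± 0.15 over DMSO (limma, adjusted p = 5.45e-10) and 1.996 ± 0.16 over IAA (adjusted p = 2.27e-08), and B exceeded DMSO by 2.93 ± 0.16.

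AT1G70420 and AT3G27880 kept a wide gap to their controls under both compounds. AT1G70420 had 9.61, 9.56 and 9.43 in B, 8.68, 8.85, 8.19 and 8.52 in A and 7.14, 7.202, 6.56 and 6.44 in DMSO. With IAA it had 8.91, 9.51 and 9.33 in IAA/B, 8.23, 7.98 and 8.20 in IAA/A and 6.23, 6.22, 6.61 and 6.38 in IAA. All 3 groups of a setting were apart, and A raised it by 1.72 ± 0.17 over DMSO (limma, adjusted p = 4.41e-07) and by 1.77 ± 0.19 over IAA (adjusted p = 1.16e-06). AT3G27880 had 10.03, 9.71 and 9.75 in B, 8.82, 9.09, 8.44 and 8.96 in A and 7.495, 6.96, 7.25 and 7.27 in DMSO. Its IAA/B arrays read 9.18, 9.80 and 9.47, its IAA/A arrays 8.54, 8.64 and 8.42 and its IAA arrays 7.12, 7.43, 7.18 and 7.27. Again no array crossed a group, and A raised it by 1.59 ± 0.14 over DMSO (limma, adjusted p = 1.13e-07) and by 1.28 ± 0.16 over IAA (adjusted p = 7.74e-06).

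AT2G01300 followed the same order. It read 8.42, 8.33 and 8.22 in B, 7.39, 7.79, 7.46 and 7.11 in A and 6.27, 5.96, 6.05 and 6.18 in DMSO. In the presence of IAA it read 8.08, 8.99 and 8.17 in IAA/B, 7.53, 7.45 and 7.32 in IAA/A and 6.13, 5.84, 5.96 and 5.92 in IAA. The groups of a setting did not overlap. With A it rose by 1.32 ± 0.16 over DMSO (limma, adjusted p = 7.56e-06) and by 1.47 ± 0.17 over IAA (adjusted p = 5.75e-06).

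In AT5G13200 the lead of B was wider. Without IAA the signal was 10.05, 9.72 and 9.56 in B, 8.68, 8.65, 8.08 and 8.12 in A and 7.44, 7.12, 6.94 and 6.97 in DMSO. With IAA it was 9.17, 9.60 and 9.68 in IAA/B, 8.17, 8.33 and 8.07 in IAA/A and 7.76, 7.45, 7.26 and 7.17 in IAA. The 3 groups of either setting did not overlap. B exceeded A by 1.39 ± 0.18 and IAA/B exceeded IAA/A by 1.29 ± 0.19. A raised the gene by 1.27 ± 0.17 over DMSO (limma, adjusted p = 2.1e-05) and by 0.78 ± 0.18 over IAA (adjusted p = 0.00834). The call over IAA was lost without IAA/A 2.

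AT4G39670 and AT4G36010 showed smaller differences made by both compounds where IAA was present. So did AT2G32020, AT5G13200, AT3G27880, AT2G47890 and AT2G36220, and no interaction of IAA with a compound passed for any member in the main fit. Both differences made by B were used by the rule. No share over all probe sets is given for this pattern, and nothing is read from it. AT4G39670 gave 8.95, 8.76 and 8.76 in B, 8.47, 8.38, 7.59 and 7.55 in A and 7.12, 6.90, 5.85 and 6.07 in DMSO. With IAA it gave 8.43, 8.71 and 8.36 in IAA/B, 7.85, 7.95 and 7.66 in IAA/A and 6.97, 6.92, 6.55 and 6.62 in IAA. No array of AT4G39670 crossed a group in either setting. A raised it by 1.51 ± 0.24 over DMSO (limma, adjusted p = 0.000224) and by 1.05 ± 0.26 over IAA (adjusted p = 0.0138), the second call being lost without IAA/A 1 or IAA/A 2. AT4G36010 gave 9.71, 9.55 and 9.44 in B, 8.08, 8.53, 7.88 and 8.66 in A and 7.26, 6.53, 7.33 and 6.84 in DMSO. Its arrays with IAA stood at 8.55, 9.42 and 9.62 in IAA/B, 8.93, 8.996 and 8.05 in IAA/A and 8.02, 7.99, 7.68 and 7.61 in IAA. IAA/B 1, at 8.55, lay below IAA/A 1 and IAA/A 2, so these groups overlapped. A raised AT4G36010 by 1.30 ± 0.24 over DMSO (limma, adjusted p = 0.00124), while the 0.84 ± 0.26 over IAA missed the threshold (adjusted p = 0.0528, 95% interval 0.29 to 1.39). That difference passed in 10 of 28 alternatives, with adjusted p between 0.00014 and 0.224.

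AT4G28460 and AT2G23270 varied widely between arrays of a group. AT4G28460 had 7.97, 7.25 and 7.31 in B, 7.48, 6.57, 6.22 and 5.75 in A and 5.54, 5.97, 4.82 and 5.14 in DMSO. With IAA it had 6.91, 7.71 and 6.80 in IAA/B, 5.86, 5.91 and 5.999 in IAA/A and 4.77, 4.85, 4.82 and 4.78 in IAA. The array A 1 lay among the B arrays and A 4 among the DMSO arrays, whereas the groups with IAA were apart. A raised it by 1.14 ± 0.29 over DMSO (limma, adjusted p = 0.0169, lost without DMSO 3 or A 1) and by 1.12 ± 0.32 over IAA (adjusted p = 0.0302, lost without any 1 of the 7 arrays compared). AT2G23270 had 9.90, 8.98 and 8.64 in B, 9.78, 8.95, 8.31 and 7.13 in A and 8.30, 7.84, 6.60 and 6.17 in DMSO. Its A arrays overlapped both the B and the DMSO arrays, while every B array lay above every DMSO array. The arrays with IAA were tighter, at 9.02, 9.11 and 8.72 in IAA/B, 7.68, 7.67 and 7.92 in IAA/A and 6.39, 6.44, 6.94 and 6.87 in IAA. The pooled SD within groups of AT2G23270 was 0.73, the highest of the members. Its differences between A and DMSO, 1.31 ± 0.46 with a 95% interval of 0.35 to 2.28, and between IAA/A and IAA, 1.098 ± 0.50, did not pass (limma, adjusted p = 0.088 and 0.193).

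A group of 8 members stood less than 0.2 log2 units above the control under A in both settings, a limit chosen after the values were seen. They were AT3G54520, AT2G21640, AT5G40690, AT3G45730 and the probe sets 247435_at, 249823_s_at, 262177_at and 265658_at. For 262177_at, DMSO gave 7.40, 8.53, 7.16 and 7.19, A gave 7.83, 7.38, 7.79 and 7.72 and B gave 8.52, 8.61 and 8.40. Its DMSO 2 array thus lay above every A array and among the B arrays, and it raised the DMSO mean. The rule asks B to exceed A, so it caps the difference made by A. B exceeded DMSO by only 0.63 for 249823_s_at and 0.76 for 265658_at, so without IAA the rule itself kept A under this limit. The share of all probe sets under the limit is not given. The signal of AT3G54520 was 6.28, 5.21 and 4.99 in B, 3.61, 3.59, 3.71 and 3.71 in A and 3.61, 3.66, 3.72 and 3.71 in DMSO. With IAA it was 4.61, 4.99 and 4.64 in IAA/B, 3.55, 3.58 and 3.505 in IAA/A and 3.57, 3.63, 3.59 and 3.54 in IAA. The 15 arrays without B all lay between 3.505 and 3.72, and the 6 arrays with B between 4.61 and 6.28. Its DMSO mean of 3.67 lay at percentile 3.17 of all probe sets, near the low end of the scale, where background limits any difference, so no lack of response to A is measured here. B exceeded DMSO by 1.82 ± 0.18. The 95% interval of the difference between A and DMSO was -0.38 to 0.33, and that between IAA/A and IAA was -0.42 to 0.34 (limma, adjusted p = 0.961 and 0.934).

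AT5G40690 and AT3G45730 shared that pattern at smaller size. B exceeded DMSO by 0.92 and 0.84, so the rule left little room for a rise under A without IAA. AT5G40690 gave 9.30, 8.48 and 8.44 in B, 8.002, 8.34, 7.66 and 7.23 in A and 7.95, 7.80, 7.77 and 7.75 in DMSO. With IAA it gave 7.91, 8.64 and 8.24 in IAA/B, 7.47, 7.70 and 7.24 in IAA/A and 7.26, 7.77, 7.68 and 7.70 in IAA. The B arrays lay above the A and DMSO arrays, and A lay on both sides of DMSO, with a 95% interval of -0.46 to 0.44 for the difference. AT3G45730 gave 8.001, 7.73 and 7.26 in B, 6.72, 6.24, 6.47 and 6.85 in A and 7.10, 6.72, 6.64 and 6.84 in DMSO. Its arrays with IAA were at 6.95, 7.26 and 7.25 in IAA/B, 6.64, 6.48 and 6.59 in IAA/A and 6.38, 6.43, 6.56 and 6.59 in IAA. Here too only the arrays with B were apart, and the 95% interval for A minus DMSO was -0.57 to 0.05.

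Of the probe sets without a gene, 247435_at had 9.96, 9.30 and 9.32 in B, 8.27, 7.996, 7.80 and 7.82 in A and 8.21, 7.74, 7.72 and 7.88 in DMSO. In the arrays with IAA it had 8.90, 9.32 and 9.04 in IAA/B, 7.68, 7.64 and 7.60 in IAA/A and 7.76, 8.06, 7.81 and 7.84 in IAA. All arrays with A lay below all arrays with B. The 95% intervals of the differences made by A were -0.22 to 0.39 over DMSO and -0.56 to 0.10 over IAA.

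The 3 members with the largest difference between B and DMSO were all probe sets without a gene, and A raised all 3 over DMSO, by unlike amounts. The probe set 263231_at had 10.72, 9.78 and 9.80 in B, 8.91, 8.02, 8.51 and 8.83 in A and 5.18, 4.87, 4.86 and 5.29 in DMSO. With IAA it had 9.56, 9.74 and 9.35 in IAA/B, 8.82, 8.85 and 8.26 in IAA/A and 4.87, 5.11, 4.997 and 4.41 in IAA. Every array with a compound lay more than 2 log2 units above every control array, and A alone raised it by 3.51 ± 0.22 over DMSO (limma, adjusted p = 5.16e-10) and 3.80 ± 0.24 over IAA (adjusted p = 8.42e-10). The probe set 245381_at, at 8.53, 8.41 and 8.40 in B, 8.16, 7.998, 7.51 and 7.11 in A and 4.75, 4.44, 4.38 and 5.02 in DMSO, behaved alike. With IAA it stood at 7.85, 8.07 and 8.19 in IAA/B, 7.56, 7.51 and 7.19 in IAA/A and 5.58, 5.10, 5.09 and 4.92 in IAA. No array crossed a group in either setting. A raised it by 3.04 ± 0.19 over DMSO (limma, adjusted p = 5.74e-10) and by 2.25 ± 0.21 over IAA (adjusted p = 2.38e-07).

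The probe set 260932_s_at had the largest lead of B over A in the set. It gave 9.26, 8.14 and 8.27 in B, 5.73, 5.99, 5.75 and 5.10 in A and 4.53, 5.397, 4.33 and 4.11 in DMSO. With IAA it gave 7.46, 8.17 and 7.60 in IAA/B, 5.22, 4.88 and 5.204 in IAA/A and 4.52, 4.71, 4.74 and 4.65 in IAA. The arrays with B stood more than 2 log2 units above all others of the same setting, while A 4 lay within the DMSO range. B exceeded A by 2.92 ± 0.28 and IAA/B exceeded IAA/A by 2.64 ± 0.30. A raised it by 1.05 ± 0.26 over DMSO (limma, adjusted p = 0.0137, lost without DMSO 3), and the 0.44 ± 0.28 over IAA did not pass (adjusted p = 0.384). A probe set with the suffix s_at can bind transcripts of more than 1 gene, and 3 members carry that suffix.

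Because 29 members have no gene, they could not be checked against the names that the rule leaves out. The members 244979_at and 244981_at moved with the plastid gene rpl36, which codes for a ribosomal protein and was left out by name. By number they lie on either side of its probe set, 244980_at, and both remain in all counts of members here. Over the 21 arrays, the deviations from group means of 244979_at correlated with those of the rpl36 probe set at 0.97, and those of 244981_at at 0.92. With the probe set of rpoA, also left out by name, the correlations were 0.80 and 0.88. This is a description, since the values share the same arrays. The signal of 244979_at was 11.29, 11.22 and 11.24 in B, 10.35, 8.92, 10.77 and 9.86 in A and 9.21, 9.71, 8.85 and 9.15 in DMSO. With IAA it was 11.37, 10.24 and 11.04 in IAA/B, 8.81, 8.40 and 10.48 in IAA/A and 9.55, 9.56, 9.38 and 9.46 in IAA. A 2 lay within the DMSO range and IAA/B 2 below IAA/A 3, so the level of this probe set varied widely within the groups. Neither probe set passed in A against DMSO or in IAA/A against IAA.

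AT2G21640 is the 1 member on any of the 15 gene lists used here, the list of genes known from mitochondrial stress. It read 9.39, 8.65 and 8.57 in B, 8.05, 6.88, 7.75 and 7.92 in A and 7.90, 6.99, 7.73 and 7.88 in DMSO. With IAA it read 8.31, 7.75 and 8.31 in IAA/B, 7.198, 7.44 and 7.80 in IAA/A and 7.42, 7.48, 7.37 and 7.43 in IAA. B lay above A and DMSO on all arrays, whereas IAA/B 2 lay just below IAA/A 3. The 95% intervals of the differences made by A were -0.49 to 0.53 over DMSO and -0.50 to 0.60 over IAA (limma, adjusted p = 0.972 and 0.94).

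A gene of a list counts as measured where a probe set is paired with it alone, which held for 3 of the 7 genes of mitochondrial stress. A raised 1 of the 3 over DMSO, against the 8.39% of all probe sets, and the list median was 0.50 log2 units, with -0.02 over all probe sets. That gene was NDB2, a mitochondrial NAD(P)H dehydrogenase that bypasses the proton-pumping complex, which rose by 1.29 ± 0.15 after A (limma, adjusted p = 2.65e-06) and stood 1.58 above DMSO after B. NDB2 is thus on the same list as AT2G21640 but rose under A, and B exceeded A by 0.28. Of the list of other detoxification enzymes and transporters, 3 of 23 genes were measured and none is a member. A raised 2 of the 3, AER, an alkenal reductase, by 1.86 ± 0.14 (limma, adjusted p = 1.04e-08) and AT2G04070, listed as the multidrug transporter DTX4, by 0.85 ± 0.18 (adjusted p = 0.00341). B stood above DMSO by 1.94 for AER and 0.76 for AT2G04070, so these genes had no lead of B at the size the rule asks. Of the WRKY transcription factors, 2 of 9 were measured, and WRKY6 rose by 2.61 ± 0.21 after A (limma, adjusted p = 2.64e-08) and stood 1.77 above DMSO after B. The lists of glutathione and sulfur supply (1 of 11 measured), the unfolded protein response (1 of 6), redox (1 of 9) and abscisic acid (2 of 9) had 0 genes past the threshold in A or in B against DMSO. With IAA present, BZIP60, a transcription factor of the unfolded protein response, was higher in IAA/B against IAA by 0.48 (limma, adjusted p = 0.00586). The cold and abscisic acid genes COR15B and COR15A were lower, COR15B in IAA/A against IAA at -0.29 and COR15A in IAA/B against IAA at -0.22 (limma, adjusted p = 0.0216 and 0.0487). COR15A lay near the low end of the scale, with means of 4.03 in IAA/B, 4.25 in IAA and 4.01 in DMSO, so its IAA/B mean was close to that of DMSO. The lists of stress NAC factors, jasmonate, ethylene and indole genes had 0 genes that could be named.

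Auxin response genes were measured for 9 of 11, and none is a member. After A 1 fell and 0 rose, and after B 2 fell and 1 rose, in the tests against DMSO, where 8.39% of all probe sets passed after A and 8.75% after B. WAG2, a protein kinase of auxin transport, was the one that fell after A, by 1.43 on the log2 scale (limma, adjusted p = 0.000325). With IAA present, 4 of the 9 were lower in IAA/A against IAA, where 9.08% of all probe sets passed. They were LBD29 and LBD16, transcription factors of lateral root formation, at -3.16 and -0.91 (limma, adjusted p = 7.64e-09 and 0.00172), and the auxin-conjugating enzymes GH3.1 and GH3.5, at -0.72 and -0.63 (adjusted p = 0.0347 and 0.0327). In IAA/B against IAA 1 was higher, the Aux/IAA gene IAA30, by 0.74, and 1 was lower, LBD29, at -1.82 (limma, adjusted p = 0.0126 and 2.14e-05; 8.01% of all passed). In IAA/B against IAA/A 2 were higher, LBD16 by 1.08 and LBD29 by 1.34 (limma, adjusted p = 0.0029 and 0.00483), against 2.82% of all probe sets passing.

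Root hair expansins were lower on the arrays with B, where the members were higher. The mean of the 5 measured root markers of 9 ran from 9.82 to 9.88 log2 units in IAA/B, 9.65 to 9.996 in B, 10.66 to 10.93 in IAA/A, 10.51 to 11.04 in A, 10.97 to 11.18 in IAA and 10.42 to 11.04 in DMSO. By limma, 2 of the 5 were lower in B against DMSO, where 8.75% of all probe sets passed. They were the root hair expansins EXPA7 and EXPA18, at -1.96 and -2.50 (adjusted p = 2.54e-06 and 1.18e-05), while PYK10, JAL33 and JAL34, at -0.16, -0.42 and -0.27, did not pass. In IAA/B against IAA 4 of the 5 were lower, against 8.01% of all probe sets passing. None of the 5 passed in A against DMSO (8.39% of all) or in IAA/A against IAA (9.08%). The 1 measured shoot marker of 7 stayed between 11.1 and 11.6 on all arrays. The mean of the 3 measured clock and cold genes ran from 5.53 to 7.62 in IAA/B, 6.61 to 7.13 in B, 5.61 to 6.16 in IAA/A, 5.71 to 7.61 in A, 7.12 to 7.38 in IAA and 5.69 to 7.90 in DMSO. The part of root cells or of time of day in the members' levels was not tested.

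Both the IAA and the DMSO arrays enter the rule, so the test of IAA alone is not free of it. By limma, 3 of the 55 members responded to IAA over DMSO, 2 upward and 1 downward, against 1.91% of all probe sets (1.43% upward and 0.479% downward), and 12 had an unadjusted p under 0.05. The share of all probe sets with such an unadjusted p is not given, so nothing is read from the 12. The median difference was 0.01 log2 units. The gene AT2G36220 had 9.36, 9.52, 8.83 and 8.74 in IAA, against 8.23, 8.10, 7.71 and 7.64 in DMSO. It had 10.77, 10.58 and 10.59 in B and 10.06, 10.22, 9.84 and 9.94 in A, and 10.77, 10.88 and 10.90 in IAA/B and 10.40, 10.46 and 10.16 in IAA/A. All arrays with IAA, A or B lay above all DMSO arrays, and the arrays with B were the highest. IAA raised it by 1.19 ± 0.16 (limma, adjusted p = 8.07e-05). A raised it by 2.09 ± 0.16 over DMSO (adjusted p = 5.97e-09) and by 1.23 ± 0.17 over IAA (adjusted p = 3.76e-05). The interactions of IAA with A and with B were -0.87 ± 0.23 and -0.99 ± 0.24 and did not pass (adjusted p = 0.506 and 0.306). With the replicate number as a block, that with A passed, at -0.95 (limma, adjusted p = 0.046).

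The probe set 255177_at also rose with IAA. It gave 7.40, 7.61, 7.11 and 7.13 in IAA, against 6.51, 5.45, 5.95 and 5.99 in DMSO, a difference of 1.34 ± 0.23 (limma, adjusted p = 0.00224). It gave 8.63, 8.45 and 8.32 in IAA/B and 8.07, 7.37 and 7.40 in B, and 7.58, 7.35 and 8.14 in IAA/A and 6.95, 6.06, 6.57 and 7.03 in A. The IAA/B arrays lay above the B arrays and the IAA/A arrays above the A arrays, with differences of 0.86 ± 0.27 over B (adjusted p = 0.212) and 1.04 ± 0.25 over A (adjusted p = 0.0669) that did not pass.

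The probe set 257823_at was lower with IAA. It gave 6.97, 7.05, 7.04 and 7.34 in IAA, against 7.62, 9.04, 7.98 and 7.85 in DMSO, with DMSO 2 standing apart, and the difference was -1.02 ± 0.21 (limma, adjusted p = 0.0121, lost without IAA 1). With B it read 10.08, 10.05 and 10.35 in IAA/B and 10.54, 10.46 and 10.41 in B, and with A 9.06, 8.90 and 8.91 in IAA/A and 9.10, 9.60, 8.97 and 8.84 in A. The arrays with B were the highest in both settings, and A raised it by 1.0 ± 0.21 over DMSO (limma, adjusted p = 0.00405) and 1.85 ± 0.23 over IAA (adjusted p = 1.18e-05).

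**Figure D4:**
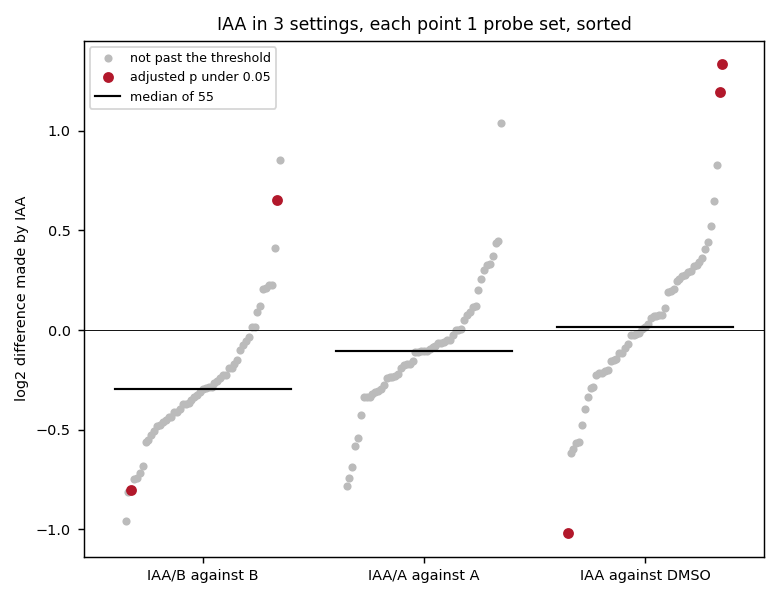
Differences made by IAA for the 55 members, in log2 units, with B present, with A present and alone, with 1 point per member sorted by size and a bar at the median. The medians are -0.29, -0.11 and 0.01, and the red points are the 2, 0 and 3 members that passed.

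The question whether IAA alters the members when a compound is present is asked by IAA/B against B and IAA/A against A. In IAA/B against B, 2 of 55 passed, 1 higher and 1 lower, against 1.24% of all probe sets (1.14% higher and 0.0923% lower), and 19 had an unadjusted p under 0.05. Nothing is read from the 19, since the share of all probe sets with such an unadjusted p is not given. The median difference was -0.29 log2 units, against -0.02 over all probe sets, and 44 members had a smaller difference made by B with IAA than without. The rule used both of those differences made by B. No share over all probe sets is given for the 44, and nothing is read from that count. AT1G74870 fell to 7.19, 7.01 and 7.15 in IAA/B, against 8.36, 7.67 and 7.74 in B, by 0.80 ± 0.16 on the log2 scale (limma, adjusted p = 0.011). Its other groups lay lower, at 6.62, 6.61 and 6.62 in IAA/A, 6.70, 6.21, 6.65 and 6.90 in A, 6.39, 6.42, 6.23 and 6.10 in IAA and 6.46, 6.39, 6.51 and 6.68 in DMSO. The call was lost without B 1 or IAA/B 2. The probe set 249823_s_at, which the annotation pairs with several genes, rose to 6.28, 6.25 and 6.30 in IAA/B, against 5.57, 5.81 and 5.48 in B, by 0.65 ± 0.14 (limma, adjusted p = 0.0126), a call lost without B 1, B 3, IAA/B 1 or IAA/B 3. Without B 1, 0 members passed in this comparison. B 1 was the highest B array of AT1G74870, AT3G54520 and AT2G21640, and for AT3G54520 and AT2G21640 the differences between IAA/B and B, -0.75 ± 0.20 and -0.75 ± 0.28, did not pass (adjusted p = 0.0784 and 0.392). The rule uses the B and IAA/B arrays, so these differences are not free of it.

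No member passed in IAA/A against A (0 of 55, with 0.831% of all probe sets passing and 7 members with an unadjusted p under 0.05 in limma), where the median was -0.11. The interaction of IAA with A, which is the difference made by IAA in the presence of A minus that without it, was called by limma for 0 of 55 (0.0484% of all probe sets; 5 members with an unadjusted p under 0.05). That with B was called for 0 of 55 (0.0132%; 16 members with an unadjusted p under 0.05), with a median of -0.36 for the members and -0.01 for all probe sets. The largest of these in size belonged to AT4G36010, at -1.202 ± 0.37 with a 95% interval of -1.98 to -0.42 (adjusted p = 0.637). The interaction with B equals the difference between IAA/B and IAA minus that between B and DMSO. The rule used both, so the members' median and the values of this interaction are not free of it. For the unadjusted p-values no share over all probe sets is given, and nothing is read from those counts.

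Between replicate arrays, the members' pooled SD within groups had a median of 0.27 log2 units and ran from 0.14 to 0.73, against a median of 0.14 over all probe sets. Over the 1485 pairs of members, the correlation of deviations from group means had a median of 0.13, and 63.6% of the pairs were above 0. The values share the 21 arrays, and the correlation is a description. The deviation of the members' median was largest on B 1, at 0.22, and lowest on B 3, at -0.15.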

How the data were processed

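RNA of 21 seedling samples was hybridised to 1-colour ATH1 arrays of 1 chip lot, and the 6 groups follow the sample titles. The authors deposited log2 signals, 1 for each array and probe set. How they corrected, summarised and normalized the probes was not given in the sources used here. Values ran from 3.02 to 13.9, so no further scaling or pseudocount was applied. Of 22810 probe sets, 64 controls were left out. The platform annotation supplied paired 13513 of the others with 1 gene, 503 with several and 8730 with none, and 13436 of the paired ones matched the RefSeq gene table.

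With limma 3.58.1 (R 4.3.3), 6 group means were fitted over the 21 arrays for all 22746 probe sets, with variances moderated along mean signal. Tests were two-sided, with Benjamini-Hochberg adjustment over all probe sets and a threshold of 0.05, and errors are standard errors of the fit. The fit was tested on simulated data. The members, gene lists and tests were chosen with earlier results of these data known. Values on every array are given for the 12 gene-paired members with the largest difference between B and DMSO, members on a list, members changed by IAA alone, and the 3 probe sets nearest each side of the thresholds. EXLA1, EXLA3 and the other members shown were chosen after their values were seen, EXLA1 and EXLA3 for their symbols. Alternatives were the upper 60% of probe sets by signal, quantile scaling, fits of the compared groups alone, no variance trend, array weights, a replicate block, leaving out 4 arrays together or each array in turn, and, for membership, group medians and thresholds shifted by 0.1. Promoter and protein sequences were not used here.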

Additional observations from a re-analysis of the deposited data

Results flagged for a closer look

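In 4 of the 165 groups of 4 arrays that were examined, 1 array lay far from the others of its group, by a gap that, relative to the group's range, passed Dixon's critical value at the 95% level. Chance flags about 1 in 20 groups. For 249823_s_at, DMSO 3 read 4.64 and the nearest DMSO array 5.06, a ratio of 0.8293. For 265658_at, IAA 3 read 5.98 and the nearest IAA array 6.25, a ratio of 0.8915. The array A 2 was low for 248048_at, at 6.37 with the nearest A array at 7.06 (ratio 0.8601), and for 256762_at, at 4.98 with the nearest at 5.72 (ratio 0.8545). Groups of 3 arrays were not examined in this way.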

How the results depend on the processing

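Counts are members passing, and the cause of each shift was not tested. Leaving out 1 array at a time gave 49 to 64 probe sets by the rule, 25 (without DMSO 3) to 39 (without A 2) members in A against DMSO, 18 to 26 in IAA/A against IAA, 2 to 5 in IAA against DMSO, 0 to 3 in IAA/B against B, 0 to 1 in IAA/A against A, and 0 for both interactions. Among the upper 60% of probe sets, 1 member passed in IAA/B against B. With only the compared groups fitted, 40 passed in IAA/A against IAA and 1 in IAA/B against B. Array weights gave 40 in IAA/A against IAA, 5 in IAA against DMSO and 2 in IAA/A against A. Without DMSO 2, DMSO 4, A 2 and IAA/B 1 together, 5 passed in IAA against DMSO and 1 in IAA/B against B. The replicate number as a block gave 1 in IAA/A against A and 1 in the interaction with A, against 0 each without the block. Same-numbered arrays correlated in their residuals at -0.43 to 0.54 (median 0.03), so the numbers are not taken to pair arrays. Of 72 results on single members, 43 kept their direction and side of the threshold in all alternatives, and 0 reversed. Thresholds 0.1 lower gave 75 probe sets by the rule and 0.1 higher gave 44. Signal over background is not given for these values.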
